A study of Rattus norvegicus with 9 samples.

Results

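Of the 22512 genes in the expression table, 57 had names of drug-metabolising enzymes, and their levels were followed in cultured cardiac fibroblasts (CFs). The 57 were all table entries whose name begins with CYP and a digit, UGT1 or UGT2, FMO and a digit, GSTA, GSTM, GSTP, GSTT or GSTZ, SULT, NAT and a digit, CES and a digit, ADH, ALDH or AKR. They comprised 27 cytochrome P450 genes, 5 flavin monooxygenases, 4 alcohol dehydrogenases, 1 aldehyde dehydrogenase, 5 aldo-keto reductases, 1 glutathione transferase, 7 UDP-glucuronosyltransferases, 5 sulfotransferases and 2 arylamine N-acetyltransferases. No entry beginning with CES, the carboxylesterases, was among them. Of the 22512 genes, 20346 are listed under a LOC number. Enzyme or marker genes among those could not be found by name, so a name missing here does not mean a missing gene. The RNA came from 9 libraries of neonatal rat CFs at a low passage number, with 3 libraries in each of the blank, AngII and vericiguat + AngII groups. The blank CFs received neither agent. The AngII CFs received angiotensin II (AngII), a peptide hormone that activates fibroblasts, at 0.1 µM for 72 h. By the labels, the vericiguat + AngII CFs, called the treated group here, were first kept for 24 h with vericiguat, a stimulator of soluble guanylate cyclase, at 1.0 µM and then received AngII for 72 h. The study's methods describe the opposite order, AngII before vericiguat, for its migration assay, so the order in the sequenced CFs rests on the labels alone. The labels do not say whether the 3 libraries of a group came from separate cultures or animals, so the p-values measure the spread between these libraries only.

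Drug metabolism is commonly described in phases. Cytochrome P450 enzymes, flavin monooxygenases, dehydrogenases and reductases add or expose a reactive group, and transferases then couple it to glutathione, glucuronic acid, sulfate or an acetyl group so that the product can be excreted. The liver holds most of this capacity, while some members act widely in the body on retinoids, sterols, fatty acids or aldehydes.

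Several features of the whole series touched every enzyme value. The unit was FPKM, the fragments of a gene scaled by gene length and library size, and 13 entries named KEF51 took 96.7% to 97.9% of the summed FPKM in the blank and AngII libraries and 45.3% to 52.3% in the treated ones. FPKM reached 1 for 260 to 1542 genes in the blank, 1155 to 1517 in the AngII and 11280 to 11565 in the treated libraries. The step between low FPKM values placed the relative depth of the 9 libraries between 0.797 and 1.33 of that of the first AngII library, although the treated libraries were tied to it through only 70 to 79 genes. Of the marker lists, 4 of 14 fibroblast genes were in the table, with a summed FPKM of 1.70 to 24.7 in the blank, 7.09 to 25.7 in the AngII and 368 to 527 in the treated libraries. For cardiomyocytes 6 of 15 were listed, at 6.80 to 9.06, 45.0 to 109 and 3812 to 6077. For erythroid cells 3 of 6 were listed, at 154 to 398, 204 to 310 and 8364 to 15127. For endothelial cells 2 of 6 were listed, at 0.054 to 0.398, 0.083 to 0.421 and 81.3 to 86.2, and for smooth muscle and pericytes 3 of 7, at 0.920 to 25.2, 4.70 to 6.85 and 428 to 731. None of the 6 macrophage markers was listed by name. The part of these cell types in the enzyme values was not tested. For hepatocytes 5 of 18 markers were listed, at 0 to 33.4, 0.130 to 3.22 and 12.8 to 22.2. APOA1, an apolipoprotein secreted by liver, was at 0 in all 9 libraries, and ALB, albumin, was above 0 only in the first AngII library, at 0.196. HP, haptoglobin, was at 33.1, 0 and 13.3 in blank, 2.69, 0.130 and 0.377 in AngII and 6.83, 3.17 and 1.36 in the treated CFs, and TF, transferrin, was at 14.3, 14.3 and 9.47 in the treated libraries and at most at 0.333 elsewhere. The part of hepatocyte RNA in the enzyme values was not tested. The submitters' processing notes name the assembly OryCun2.0, a rabbit assembly, for samples labelled as rat. Of the 57 enzyme names 25 are rat gene symbols, 3 are synonyms of rat genes and 29 are neither, so the names are given as the table lists them. Among the 27 P450 names 8 are rat symbols. Whether a listed 0 reflects missing RNA or reads not placed on the entry was not tested.

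Enzyme genes were detected mainly in the treated CFs. With detection set at FPKM of at least 1 in all 3 libraries of a group, 0 of 57 were detected in the blank group, 0 of 57 in the AngII group and 17 of 57 (29.8%) in the treated group. Over all listed genes the shares were 1.12%, 3.28% and 48.4%. In any 1 library of the group, the minimum was reached by 0 enzyme genes in blank, by 3 in AngII (ALDH1A1, CYP27A1 and ADH1A) and by 19 in the treated CFs. With any value above 0 counted, 5, 7 and 28 enzyme genes were present in all 3 libraries of the blank, AngII and treated groups. Only ALDH1A1, CYP27A1 and ADH1A were above 0 in all 9 libraries, and 14 of the 57 (24.6%) were at 0 in all 9, against 18.8% of all listed genes. The plot of detection shares sets these values side by side. In bulk RNA, fewer cells of a type and less RNA per cell cannot be told apart.

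**Figure D1:**
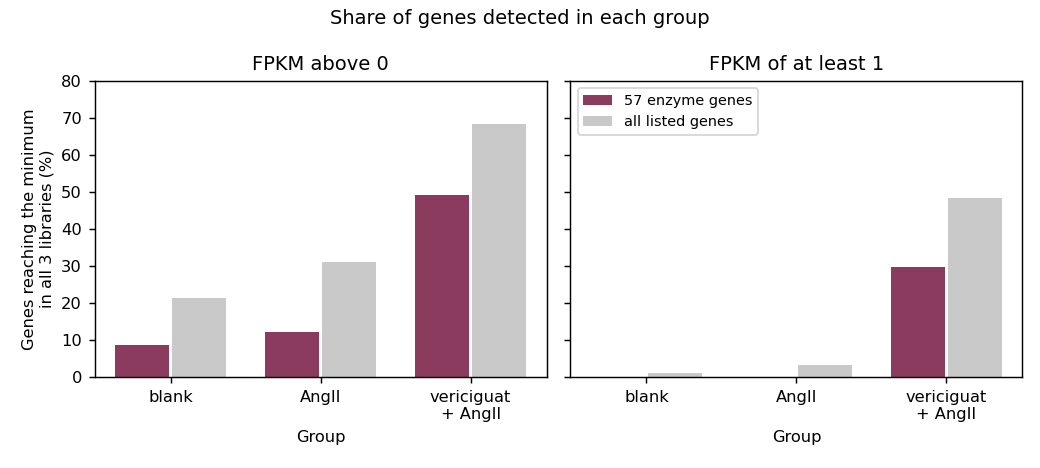
Share of genes (y axis, %) with FPKM above 0 (left) or of at least 1 (right) in all 3 libraries of the blank, AngII and vericiguat + AngII groups (x axis), for the 57 enzyme genes (dark bars) and all 22512 listed genes (grey bars). The enzyme bar is the lower one in every pair, with 29.8% against 48.4% at FPKM of at least 1 in the treated group and 0 against 1.12% in blank.

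The 4 enzyme genes with the highest mean in the treated CFs were ALDH1A1, ADH1A, ADH5 and CYP27A1. ALDH1A1, which oxidises retinaldehyde to retinoic acid, was at FPKM 0.920, 0.044 and 0.464 in the blank, 1.24, 0.814 and 0.790 in the AngII and 74.6, 58.2 and 47.9 in the treated libraries. ADH1A, a class I alcohol dehydrogenase acting on ethanol and retinol, was at 0.169, 0.073 and 0.077, then 1.27, 0.367 and 2.73, then 34.2, 42.8 and 46.2. Every treated library exceeded every other library for both genes, as for each tested enzyme gene. Groups did not overlap, in either direction, for 99.8% (against AngII) and 99.7% (against blank) of all tested genes. The AngII libraries of ADH1A lay above its blank ones with a wide spread among themselves. ADH5, the class III enzyme that clears formaldehyde bound to glutathione, was at 0.651, 0 and 0.074 in blank, 0.658, 0.118 and 0.800 in AngII and 26.6, 28.5 and 23.6 in the treated CFs. CYP27A1, a mitochondrial sterol 27-hydroxylase of bile acid and cholesterol metabolism, was at 0.472, 0.102 and 0.054, then 0.272, 1.20 and 0.166, then 26.5, 26.9 and 25.2. In the treated group, the lowest ALDH1A1 library lay just above the highest ADH1A library, and ADH5 and CYP27A1, at 26.2 ± 2.49 and 26.2 ± 0.869 (mean ± SD, n = 3), did not differ beyond their spread. The highest means of the AngII group belonged to ADH1A (1.46 ± 1.19), ALDH1A1 (0.948 ± 0.253), CYP27A1 (0.544 ± 0.566) and ADH5 (0.525 ± 0.360). Those of the blank group belonged to ALDH1A1 (0.476 ± 0.438), GSTM2 (0.373 ± 0.0252), CYP2A11-2 (0.325 ± 0.306) and ADH5 (0.242 ± 0.356). The order within the blank and AngII groups is not resolved, since most of these intervals overlap.

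Low FPKM values lay on steps, which gave the number of fragments behind them when the smallest step of a gene was taken as 1 fragment. A common step was found for 41 of the 43 enzyme genes above 0, with none for NAT1 and NAT2. With 1 low value a step is always found, so the 41 do not measure how well the steps hold. Only 19 of them had 3 or more low values, and for 16 of these the smallest value was the step. ALDH1A1 then rested on about 18, 1 and 10 fragments in the blank, 21, 11 and 11 in the AngII and 1250, 872 and 683 in the treated libraries. CYP27A1 rested on about 8, 2 and 1, then 4, 14 and 2, then 380, 344 and 308. Both genes thus rested on 1 to 21 fragments per library in the blank and AngII groups.

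**Figure D2:**
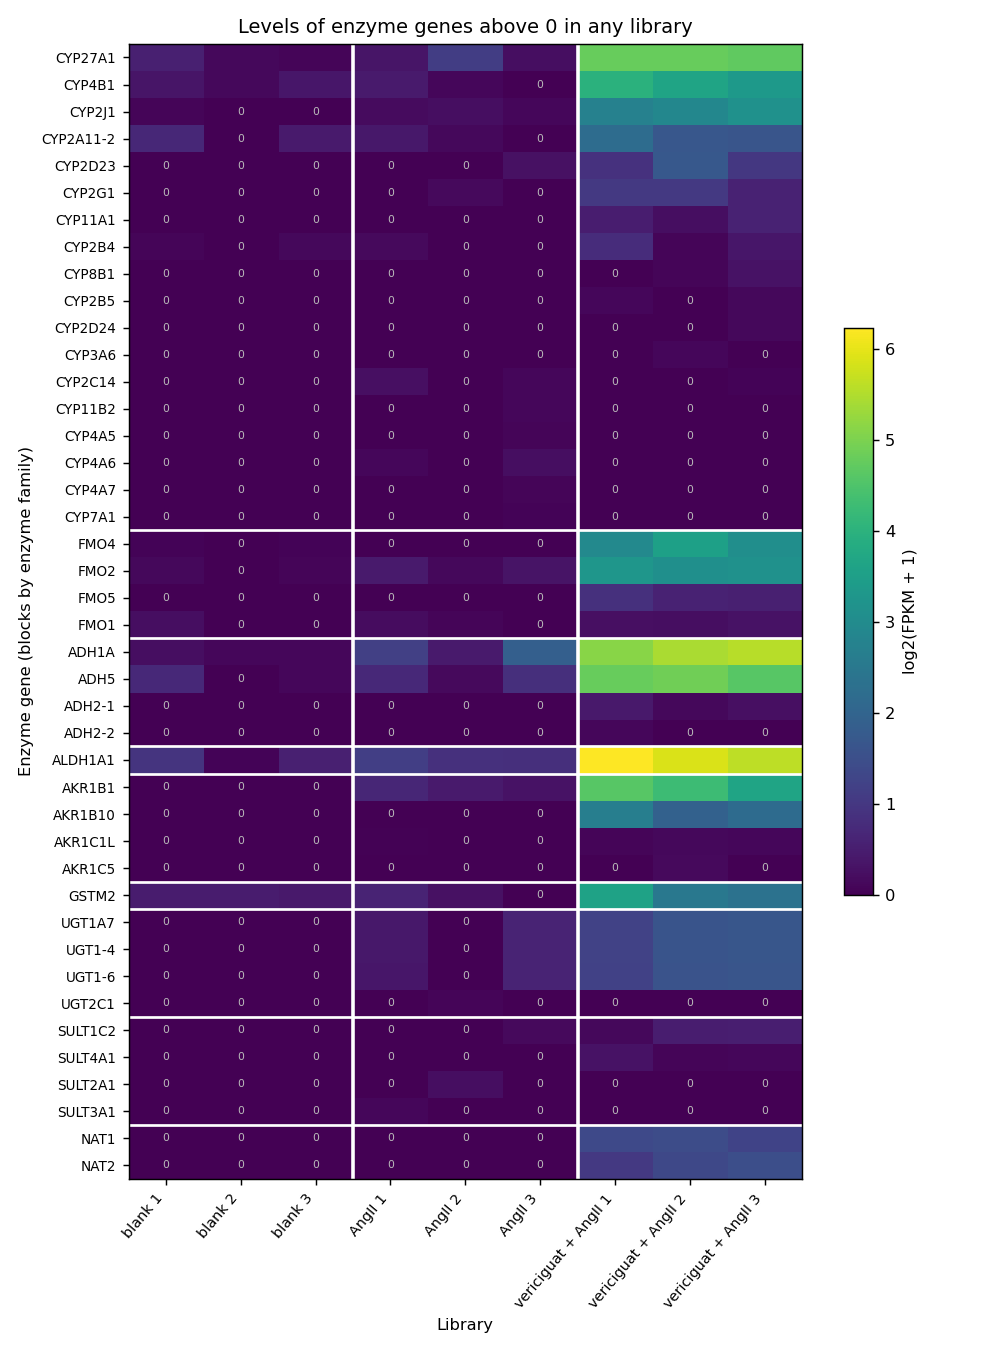
Level of 42 of the 43 enzyme genes above 0 in any library (rows, in blocks by enzyme family) in the 9 libraries (columns), as log2(FPKM + 1) on the colour scale. A 0 marks a library in which the gene is listed at 0, and the bright cells lie in the treated columns, led by ALDH1A1 (FPKM 74.6) in the aldehyde dehydrogenase block.

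Among the 27 P450 genes, 4 reached FPKM 1 in all 3 treated libraries, 2 more did so in some of them, and 9 were at 0 throughout. CYP4B1, a P450 known mainly from tissues outside the liver, was at 0.269, 0.093 and 0.293 in blank, 0.373, 0.078 and 0 in AngII and 14.8, 11.6 and 9.43 in the treated CFs. CYP2J1 belongs to the subfamily of arachidonic acid epoxygenases found in heart. It was at 0.058, 0 and 0 in blank, 0.133, 0.167 and 0.081 in AngII and 5.63, 6.37 and 7.97 in the treated libraries. The AngII values of CYP2J1 all exceeded the blank ones, but they stood for 2, 2 and 1 fragments against 1, 0 and 0. CYP2A11-2 was at 0.607, 0 and 0.367, then 0.311, 0.098 and 0, then 3.64, 2.21 and 2.14, with overlapping blank and AngII libraries. CYP2A11, its near namesake, was at 0 in all 9, so how fragments were divided between these entries is uncertain. CYP2D23 was at 0 in blank, at 0.205 in the third AngII library alone, and at 0.856, 2.30 and 1.00 in the treated CFs. CYP2G1, from a subfamily known in the olfactory lining, was at 0.107 in the second AngII library alone among the untreated ones and at 1.04, 1.06 and 0.509 in the treated group. Of 8 CYP2C entries, 7 were at 0 in all 9 libraries, and CYP2C14 was at most at 0.194, in the first AngII library. CYP3A6 was at 0.076 in the second treated library and at 0 in the other 8. CYP2B4 reached 0.739 in the first treated library, and no entry of the CYP1 family was listed by name.

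Both flavin monooxygenases that reached FPKM 1 did so in the treated group. FMO4 was at 0.047, 0 and 0.043 in blank, at 0 in all 3 AngII libraries and at 6.64, 10.6 and 7.53 in the treated CFs. It rested on 1, 0 and 1 fragments in blank and on about 120, 172 and 116 in the treated libraries, and was the 1 enzyme gene above 0 in blank and treated CFs but not in AngII. FMO2, the form prominent in lung, was at 0.093, 0 and 0.056 in blank, 0.356, 0.089 and 0.260 in AngII and 8.66, 7.69 and 7.91 in the treated group. FMO1 and FMO5 stayed below 1 in every library, with FMO5 reaching 0.827. Of the aldo-keto reductases, AKR1B1, the aldose reductase that turns glucose into sorbitol, was listed at 0 in all 3 blank libraries. It was at 0.582, 0.365 and 0.236 in AngII, on 6, 3 and 2 fragments, and at 23.7, 18.5 and 11.5 in the treated CFs. AKR1B10, a related reductase of retinal and other aldehydes, was at 0 in all blank and AngII libraries and at 5.35, 2.82 and 3.56 in the treated ones. AKR1C1L and AKR1C5 were below 1 in every library and AKR1D1 was at 0 in all 9.

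Of the 15 conjugating enzyme genes in the list, 6 reached FPKM 1 in all 3 treated libraries. GSTM2, a mu-class glutathione transferase, was at 0.380, 0.394 and 0.345 in blank, 0.526, 0.220 and 0 in AngII and 11.1, 4.69 and 4.09 in the treated CFs. Its blank values were close together, its AngII values surrounded them, and the first treated library stood well above the other two. UGT1A7, a glucuronosyltransferase, was at 0 in all blank libraries, at 0.318, 0 and 0.541 in AngII and at 1.36, 2.09 and 2.20 in the treated group. UGT1-6 and UGT1-4 followed it in every library, at 0.975 to 0.978 and 0.984 to 0.986 of its level in the 5 libraries above 0. All 3 entries rested on about 5, 0 and 7 fragments in AngII and 21, 29 and 29 in the treated CFs, so these entries cannot be told apart and count as 1 measurement. UGT1 transcripts are known to have 3′ exons in common. UGT2B13, UGT2B14 and UGT2B16 were at 0 in all 9 libraries. NAT1 and NAT2, which acetylate arylamines, were at 0 in all blank and AngII libraries. In the treated CFs NAT1 was at 1.59, 1.71 and 1.40 and NAT2 at 1.07, 1.56 and 1.83. The split of fragments between these close relatives is uncertain. None of the 5 sulfotransferases reached FPKM 1, the highest being SULT1C2 at 0.427 in the third treated library.

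**Figure D3:**
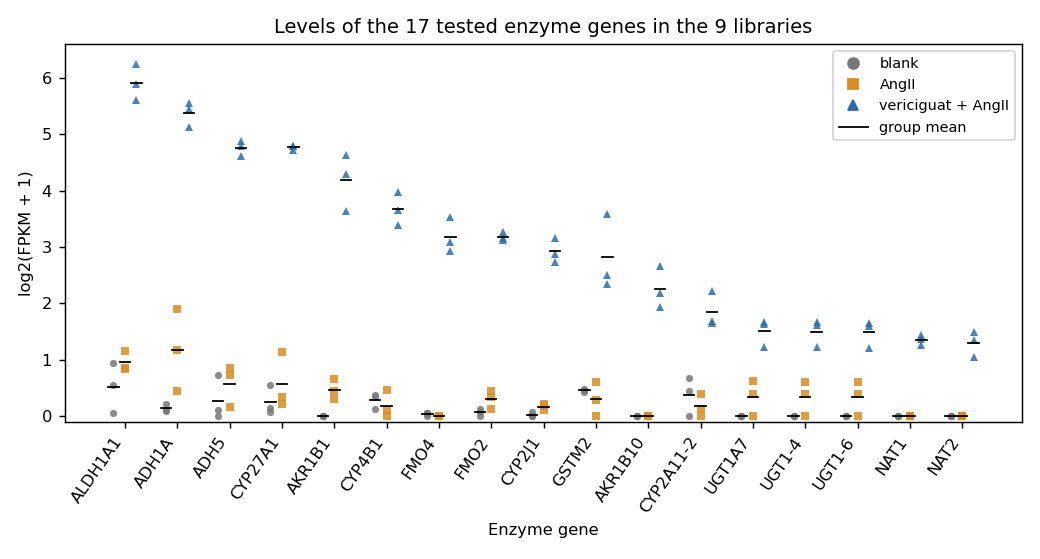
Level of the 17 enzyme genes that reached FPKM 1 in at least 3 libraries (x axis, ordered by treated mean) as log2(FPKM + 1) on the y axis, with 1 point per library in the blank, AngII and vericiguat + AngII groups and a line at each group mean. The treated points lie above all others for each of the 17 genes, while blank and AngII points mostly overlap near 0.

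Below FPKM 1 in every library but above 0 in some were 24 enzyme genes. Of the 43 enzyme genes above 0 anywhere, 14 (24.6% of 57) were so only in treated libraries, against 18.3% of all listed genes. Another 8 were above 0 only in AngII libraries, 14.0% of the 57 against 1.88% of all listed genes. These 8 were CYP7A1, the first enzyme of bile acid synthesis, CYP11B2, aldosterone synthase, the fatty acid hydroxylases CYP4A5, CYP4A6 and CYP4A7, the glucuronosyltransferase UGT2C1, and the sulfotransferases SULT2A1 and SULT3A1. CYP4A6 was at 0.071 and 0.172 in the first and the third AngII libraries, on 1 and 2 fragments. The other 7 were each above 0 in 1 library, at 0.051 to 0.184, on a single step, which cannot be checked with 1 value. CYP4A5 and CYP4A7 had the same value, 0.065, in the same library, so their fragments may be shared. Without the third AngII library the number above 0 in AngII CFs only was 4 (7.02%), against 0.768% of all listed genes. No enzyme gene was above 0 in blank alone.

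To ask how the enzymes responded to vericiguat on top of AngII, the treated group was compared with the AngII and blank groups. All 17 tested enzyme genes were higher in treated than in AngII CFs at the deposited scale, and so was nearly every other gene. A gene was tested where its FPKM was at least 1 in at least 3 libraries, which only the treated group could provide here, so the 17 had to be higher there and are not all members. A call needed a log2 fold change of 1 or more in either direction together with an adjusted p below 0.05 (limma on log2(FPKM + 1), Benjamini-Hochberg over 10908 genes). Of all tested genes 99.6% were called against AngII and 99.4% against blank, so the count of 17 of 17 says nothing particular about the enzymes. The median log2 fold change was 2.75 for the enzymes and 2.76 for all tested genes against AngII, and 2.90 and 2.83 against blank. These medians describe only genes that passed the minimum. Without it, 43 enzyme genes and 18281 genes above 0 in any library were fitted. Their medians were 0.37 and 1.72 against AngII and 0.38 and 1.74 against blank. In each comparison 18 of the 43 enzyme genes were called, beside 11248 (against AngII) and 11265 (against blank) of the 18281 genes. Within this shift the enzymes ranged from 1.16 (UGT1-6) to 4.96 (ALDH1A1) against AngII and from 1.30 (NAT2) to 5.39 (ALDH1A1) against blank. ALDH1A1 changed by 4.96 ± 0.28 (SE) on the log2 scale and lay at the 95.4th percentile of all tested genes, CYP27A1 by 4.20 ± 0.24 at the 86.8th and UGT1A7 by 1.17 ± 0.15 at the 2.37th. The log2(FPKM + 1) scale understates the change of low genes. As a plain ratio of group means, the UGT1A7 level was 6.58 times as high in treated as in AngII CFs, a log2 ratio of 2.72. The median log2 ratio was 5.52 over the 10303 tested genes above 0 in both groups. UGT1A7 lay at percentile 0.99 of those ratios. ALDH1A1, 63.5 times as high, lay only at percentile 64.1, and CYP27A1, 48.1 times as high, at percentile 52.3. ADH1A was 28.2 times as high as in AngII, a log2 ratio of 4.82 at percentile 26.8, below the median of all genes. It was 386 times as high as in blank, a log2 ratio of 8.59 at percentile 93.1, where the median was 6.11. The ADH1A values rested on about 13, 3 and 23 fragments in AngII and 2, 1 and 1 in blank. Both comparisons share the treated libraries.

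The general shift was removed by median-ratio scaling, which divides each library by its median ratio to a common reference. Against AngII, 0 of 17 enzyme genes were then called (limma), with 4.16% of all tested genes called. An unadjusted p below 0.05 was obtained for 7 enzyme genes and for 3240 of all 10908 tested genes. The 3 UGT1 entries, which count as 1 measurement, were among the 7. The median log2 fold change of the 17 enzyme genes was 0.11 beside 0.09 for all genes. The treated size factors were 13.9 to 15.8, and a treated FPKM below them scaled to less than 1. Such a gene could not be called higher, since its log2(FPKM + 1) stayed below 1. Of the 17, only ALDH1A1, ADH1A, ADH5, CYP27A1 and AKR1B1 had a treated library above its size factor. For the others the lack of a call as higher was fixed in advance. An adjusted p below 0.05 with a change smaller than 1 was obtained for AKR1B10 (0.34, adjusted p = 0.000895), FMO4 (0.65, adjusted p = 0.00179), NAT1 (0.15, adjusted p = 0.00211) and NAT2 (0.14, adjusted p = 0.00617), and AngII libraries were at 0 for all 4. A group at 0 stays at 0 under any scaling, so these 4 had to be higher in treated CFs and their p-values say nothing of a change relative to other genes. Directions flipped from higher to lower for FMO2, GSTM2, ADH1A, CYP2A11-2 and the 3 UGT1 entries, none of which passed the test after scaling. Without the second AngII library, 3 were called, all of them the UGT1 entries, lower in treated CFs, with 756 of all 10908 tested genes called.

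Against blank, 2 of 17 were called after median-ratio scaling, with 9.56% of all tested genes called. Here too, only ALDH1A1, ADH1A, ADH5, CYP27A1 and AKR1B1 were high enough in treated CFs to be called higher. AKR1B1 was higher by 1.13 ± 0.24 (adjusted p = 0.00647) and ALDH1A1 by 1.11 ± 0.32 (adjusted p = 0.0271), where the median of all genes was 0.18. Below the threshold of 1, FMO4 (0.53, adjusted p = 0.00277), CYP2J1 (0.49, adjusted p = 0.00989), AKR1B10 (0.34, adjusted p = 0.000587), NAT1 (0.15, adjusted p = 0.00128) and NAT2 (0.14, adjusted p = 0.00363) also had an adjusted p below 0.05. The blank libraries of AKR1B1, AKR1B10, NAT1 and NAT2 were all at 0, so for these the direction was fixed here as well. ADH1A, at 1.34 ± 0.50, missed it (adjusted p = 0.0669). GSTM2 turned from 2.36 higher to −1.03 (adjusted p = 0.124), and CYP2A11-2 and CYP4B1 also turned in sign without passing. With the first treated library left out 0 were called, with the second left out 0, with the third left out 1, and with the second AngII library left out 4. Of all 10908 tested genes 614, 627, 649 and 1199 were called in these fits. Without the second blank library AKR1B1 and CYP2A11-2 were called, the latter lower by −1.28, and ALDH1A1 was not, with 1397 of all tested genes called. The scaling multiplied values resting on single fragments, most of all in the second blank library, which had a size factor of 0.0792 beside 0.463 and 0.263 in the other blank libraries.

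**Figure D4:**
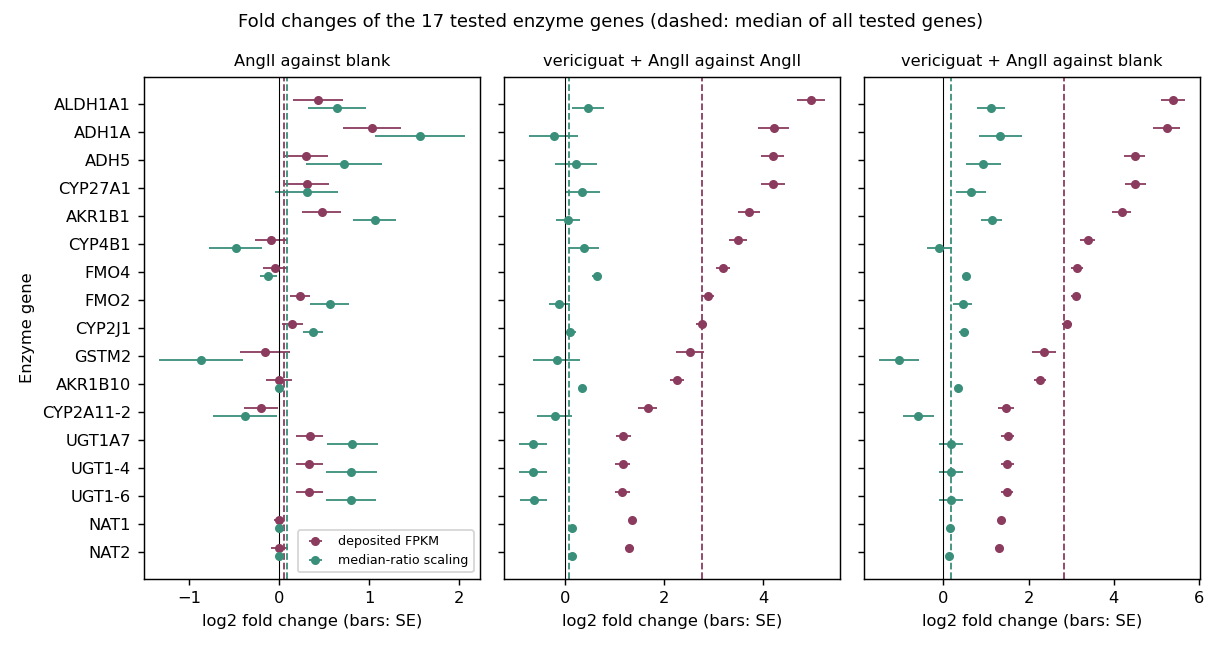
Log2 fold change on the log2(FPKM + 1) scale (x axis, bars are SE) of the 17 tested enzyme genes (y axis) in the 3 comparisons (panels), for deposited FPKM and after median-ratio scaling. Dashed lines mark the median of all 10908 tested genes, which moves from 2.76 to 0.09 in the middle panel as the enzyme points move with it.

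AngII was compared with blank to follow the response to AngII alone. No enzyme gene was called among 17 tested (limma), and 1.55% of all tested genes were called. An unadjusted p below 0.05 was obtained for 4 of the 17 and for 1567 of all 10908 tested genes. The median log2 fold change was 0.23 for the enzymes and 0.06 for all tested genes. ADH1A had the largest difference, 1.03 ± 0.32 higher in AngII (adjusted p = 0.147), and it passed without the second AngII library (1.40, adjusted p = 0.0295). The other 3 with an unadjusted p below 0.05 were the UGT1 entries, UGT1A7 at 0.34 ± 0.15 (adjusted p = 0.337). These entries count as 1 measurement and were at 0 in all blank libraries. Groups did not overlap for 3 of the 17 (ADH1A, AKR1B1 and CYP2J1), all higher in AngII, and for 21.3% of all tested genes. AKR1B1 differed by 0.47 ± 0.22 (adjusted p = 0.365) and CYP2J1 by 0.14 ± 0.12 (adjusted p = 0.671). After median-ratio scaling, AKR1B1 alone was called, at 1.07 ± 0.24 (adjusted p = 0.0180), with 8.39% of all tested genes called. That call was lost without the first or the third blank library, the first AngII library or any 1 treated library. Without the second AngII library 6 entries were called, AKR1B1, ADH1A, ADH5 and the 3 of the UGT1 locus that count as 1 measurement. Of all 10908 tested genes 1399 were then called. All 3 blank libraries of AKR1B1 were at 0.

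The spread among the 3 treated libraries differed widely between enzymes. The median coefficient of variation was 24.4% over the 17 enzymes and 13.5% over the 10901 genes detected in all 3. The value of 24.4% is that of UGT1A7, 1 of the 3 UGT1 entries that count as 1 measurement. GSTM2 varied most (58.5%, with 2.71 times as much in the first library as in the third), followed by AKR1B1 (34.3%) and AKR1B10 (33.3%). CYP27A1 (3.32%), FMO2 (6.27%) and ADH5 (9.51%) varied least. The first treated library was highest for 7 and lowest for 7 of the 17, with all 3 UGT1 entries among the 7 lowest. ALDH1A1, AKR1B1, CYP4B1 and GSTM2 were highest there, and ADH1A, FMO4, CYP2J1 and UGT1A7 lowest.

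Partners of these enzymes were followed through a list of 73 genes for regulators, electron donors, cofactor supply, other enzymes and efflux pumps, of which 22 were in the table and 14 were tested. POR, the reductase that feeds electrons to microsomal P450 enzymes, was at 1.21, 0 and 0.823 in blank, 0.116, 1.02 and 0.283 in AngII and 26.3, 21.7 and 24.6 in the treated CFs. AHR, the receptor that drives CYP1 genes, was at 0 in blank, 0.073, 0 and 0.133 in AngII and 12.3, 9.38 and 13.1 in the treated group, and its partner ARNT averaged 12.5 ± 1.59 there. NR1I2, the pregnane X receptor that controls CYP3A genes, was at 0 in all 9 libraries. The highest levels were those of MGST3, a microsomal glutathione transferase (101 ± 21.2 in the treated CFs), INMT, an amine N-methyltransferase (70.8 ± 19.8), DHRS4, a carbonyl reductase (64.1 ± 6.61), HMOX2, a heme oxygenase (49.6 ± 8.97), and EPHX1, the microsomal epoxide hydrolase (34.1 ± 5.86, SD, n = 3). All 14 were called higher in treated CFs than in AngII and than in blank at the deposited scale, as were 99.6% and 99.4% of all tested genes. After median-ratio scaling 0 of 14 were called against AngII, with 3 at an unadjusted p below 0.05 beside 3240 of all 10908 tested genes. Against blank 1 was called, MGST3 (1.41, adjusted p = 0.0363). Of all tested genes 4.16% and 9.56% were called. Partners with treated FPKM below the treated size factors, such as AHR and ARNT, could not be called higher on that scale. The MGST3 call was lost without the first or the third blank library or any 1 treated library. DHRS4 was the 1 partner called in AngII against blank, at 0.399, 0.276 and 0.290 in blank and 1.66, 6.23 and 2.69 in AngII. Its log2 fold change was 1.65 (adjusted p = 0.0418), and 1.89 (adjusted p = 0.0145) after median-ratio scaling. The DHRS4 call was lost with equal sums of all genes (1.22, adjusted p = 0.142) or without KEF51 (2.10, adjusted p = 0.0543), with a fit of the compared libraries alone (adjusted p = 0.162), with no minimum (adjusted p = 0.0844), with the replicate block (adjusted p = 0.0750), and without the first or the third blank library, the third AngII library or any 1 treated library, where the adjusted p was 0.0767 to 0.223. With only the compared groups 0 of all 10908 genes passed in AngII against blank (limma), with 1663 at an unadjusted p below 0.05.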

How the data were processed

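CFs were isolated from neonatal rats, and 9 RNA-seq libraries were assigned to groups from their labels. The authors removed poor reads, placed the rest on a reference genome supplemented with predicted coding transcripts, and deposited FPKM values per gene. The submitters' processing notes name FastQC 0.11.9, Trimmomatic 0.39, HISAT2 2.2.1, featureCounts 2.0.1 and OryCun2.0, without roles. The table holds no counts, so total depth is unknown. Relative depth was estimated from values between FPKM 0.05 and 0.2, a window chosen after seeing the data. The step of an enzyme gene was its smallest value, or a simple fraction of it, of which all values up to 10 steps were multiples within 0.15.

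Genes reaching FPKM 1 in 3 or more libraries (10908) were fitted on log2(FPKM + 1) by limma 3.58.1 (R 4.3.3), with eBayes trend, all 9 libraries and no covariate. They were tested on simulated data first. Alternatives were median-ratio scaling, equal sums with and without the KEF51 entries, a pseudocount of 0.1, no minimum, a mean FPKM of 5 or more, only the compared groups, a replicate block, no trend, other detection minimums, and each library left out. Every enzyme gene with FPKM of at least 1 in any library was named, the 4 with the highest mean of each group first, with those passing an adjusted p after scaling, those whose groups did not overlap where 5 or fewer, and up to 8 partners by mean FPKM; others named below FPKM 1 were chosen after their values were seen. Enzymes, lists and rules were chosen with earlier results of these data known. Names were matched to RefSeq's rat genes (GRCr8) with case ignored. No sequence is printed, and 1 enzyme gene is counted but not reported here by name.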

Additional observations from a re-analysis of the deposited data

How the results depend on the processing

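For treated against AngII, the 17 enzyme genes called became 0 after median-ratio scaling, 11 after scaling to equal sums without the 13 KEF51 entries, and 5 of 5 tested at a mean FPKM of at least 5. Over all genes, 454 and 6819 of 10908 and 3113 of 3124 were called in these settings. After median-ratio scaling, genes with treated FPKM below the treated size factors could not be called higher. With equal sums without KEF51 the same held for NAT1, NAT2 and the 3 UGT1 entries, whose treated values scaled to less than 1. Their loss in that setting was fixed in advance, against AngII and against blank. For treated against blank the 17 enzyme genes called became 2, 10 and 5, beside 1043, 7024 and 3110 of all tested genes. For AngII against blank, 0 became 1 after median-ratio scaling (AKR1B1), 2 with a pseudocount of 0.1 (ADH1A and AKR1B1) and 1 at a mean FPKM of at least 5 (ADH1A). Over all genes, 915 and 969 of 10908 and 342 of 3124 were called in these settings. Leaving out 1 library gave 0 to 1 called in AngII against blank and 15 to 17 in treated against AngII, where UGT1-6 and UGT1-4 were lost without the second AngII library. Over all 10908 tested genes the ranges were 0 to 309 and 10852 to 10870. After median-ratio scaling, leaving out 1 library (chosen after seeing the data) gave 0 to 6 in AngII against blank, 0 to 3 in treated against AngII and 0 to 4 in treated against blank, with 1, 0 and 2 from all 9 libraries. The ranges over all tested genes were 563 to 1399, 194 to 756 and 614 to 1397. The number above 0 only in AngII CFs was 4 to 7 with 1 AngII library left out. Apart from genes that could not be called higher after scaling, and the fewer genes tested at the higher mean, the cause of these changes was not tested.

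Signs reversed against AngII after median-ratio scaling for FMO2 (−0.11), GSTM2 (−0.17), ADH1A (−0.23), UGT1A7 (−0.64), UGT1-6 (−0.63), UGT1-4 (−0.63) and CYP2A11-2 (−0.20), and with equal sums without KEF51 for UGT1A7 (−0.06), UGT1-6 (−0.06) and UGT1-4 (−0.06). Against blank they reversed after median-ratio scaling for GSTM2 (−1.03), CYP4B1 (−0.10) and CYP2A11-2 (−0.58), and with equal sums without KEF51 for CYP2A11-2 (−0.15).

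Detection in all 3 libraries at FPKM of at least 0.1 gave 1 gene in blank and 5 in AngII, and any value above 0 gave 5, 7 and 28 in blank, AngII and treated CFs. The minimum of 1 in any 1 library gave 3 in AngII.

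With a replicate block in the model, the calls were 0, 17 and 17 enzyme genes, and 1, 0 and 2 after median-ratio scaling, as without it. Over all 10908 tested genes they were 7, 10869 and 10846, and 833, 416 and 1025 after that scaling. Correlations of the deviations of same-numbered libraries lay between −0.062 and 0.065, which shows no pairing by number. Only 252 blank and 738 AngII genes reached FPKM 1 in all 3 libraries, so shared cultures or animals cannot be told from these correlations. With the UGT1 entries counted as 1 (chosen after seeing the data), 0, 15 and 15 of 15 were called in AngII against blank, treated against AngII and treated against blank. Of all 10908 tested genes, 1.55%, 99.6% and 99.4% were called in these comparisons. With no total counts in the table, no counting error could be given.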
